A study of Sus scrofa with 14 samples.

Results

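Pig cells taken late in a myogenic differentiation of epiblast stem cells were compared with their own early progenitor stage. The late cells, pgEpiSCs-MCs, were collected on day 44 (3 libraries), and the progenitors, pgEpiSCs-MPCs, on day 8 (2 libraries), so 5 of the 14 libraries of the series made up the comparison. Both groups are wild type and came from pgEpiSCs, pluripotent cells of the pre-gastrulation epiblast that were maintained on MEF feeder layers. Their induction opened with CHIR99021, which activates Wnt signalling by inhibiting GSK3, together with SB431542, which inhibits TGF-beta receptors. The next medium held CHIR99021, FGF2 and LDN193189, an inhibitor of BMP receptors, and the medium after it, in which pgEpiSCs-MPCs are described, held HGF, IGF-1, FGF2 and LDN193189. Later media concern the pgEpiSCs-MCs alone: IGF-1 by itself, then HGF with IGF-1, then N2 supplement. The sources used here describe no sorting of cells before RNA extraction and speak of biological replicates without describing whether each had its own culture. The p-values measure only the spread between these libraries, which may be technical in part. The other libraries were day 0 pgEpiSCs at low and high passage (pgEpiSCs-Low and pgEpiSCs-high, 3 each) and pig muscle stem cells differentiated for 4 days (MPC-Dif, 3). They shared the model's estimate of the spread.

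Expression was given as TPM, a transcript share scaled for gene length and to a fixed total per library, so the number of reads behind a value is unknown. Testing was limited to genes that exceeded 0.5 TPM in 50% or more of the samples of some group among the 5. Calls were made by limma on log2(TPM + 1) below an adjusted p of 0.05. Every log2 fold change below is on that scale, as pgEpiSCs-MCs minus pgEpiSCs-MPCs, and understates the change of genes of low TPM. The test covered 14957 of the 15031 genes listed and left out 74. It called 70.6% of them. Higher in pgEpiSCs-MCs were 5166 genes (34.5%), lower were 5395 (36.1%), and 4396 did not pass. A log2 fold change above 2 was found for 962 of the higher genes (6.43% of those tested), and one below -2 for 257 of the lower genes (1.72%). The median over all tested genes was -0.01. Libraries of a group correlated at Pearson's r of 0.992 to 0.994 in pgEpiSCs-MCs and of 0.994 in pgEpiSCs-MPCs, against 0.862 to 0.871 between the groups, across genes. Genes above 0.5 TPM numbered 13723 to 13781 per pgEpiSCs-MCs library and 13096 to 13116 per pgEpiSCs-MPCs library.

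Skeletal muscle forms from progenitors that carry the paired-box factors PAX3 and PAX7. These cells turn on the myogenic regulatory factors MYF5 and MYOD1, then MYOG, leave the cell cycle, fuse through myomaker and myomixer, and assemble sarcomeres, at first with embryonic and perinatal myosins. Connective tissue cells around the fibres make the collagen-rich matrix.

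Some markers of each label were present and others were near absent. Which cells carried them was not tested, so PAX3 and PAX7 do not by themselves identify the pgEpiSCs-MPCs as muscle progenitors. In pgEpiSCs-MPCs the progenitor factor PAX3 had 118 and 121 TPM, PAX7 20.6 and 25.5 TPM and MYOD1 10.4 and 14.8 TPM, whereas MYF5 had 0.303 and 0.133 TPM. Genes of the dorsal neural tube and the ear were more abundant in the same libraries: OC90, an otoconial protein of the inner ear, had 2540 and 2734 TPM, the retinoic acid binding protein CRABP1 had 1415 and 1417 TPM, and the dorsal neural factor ZIC1 had 1048 and 1094 TPM. Of 25 tested dorsal neural, crest and otic genes the summed level was 2779 to 2976 TPM in pgEpiSCs-MCs and 7060 to 7481 TPM in pgEpiSCs-MPCs. OC90, CRABP1 and ZIC1 made up most of this sum in every library. The fall of OC90 alone was most of the difference in the sum between the groups. In pgEpiSCs-MCs the muscle genes MYOG, MYH3, DES and ACTC1 had at least 47.3 TPM in every library, but the muscle creatine kinase CKM reached at most 0.757 TPM and the skeletal actin ACTA1 at most 1.65 TPM. In these bulk libraries a change in the number of cells of a type and a change in RNA per cell cannot be told apart.

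Regulators of myogenesis were mostly higher on day 44. Of 23 tested myogenic transcription factors and fusion genes 15 were higher in pgEpiSCs-MCs and 4 lower, with a median log2 fold change of 1.06. That is 65.2% and 17.4%, against 34.5% and 36.1% of all genes. MYF5, which commits progenitors to muscle, had 48.1, 48.2 and 47.9 TPM in pgEpiSCs-MCs, against 0.303 and 0.133 TPM in pgEpiSCs-MPCs. It was near absent from both progenitor libraries and almost equal in the late ones, with a log2 fold change of 5.34 ± 0.26 (SE; adjusted p = 2.9e-10). MYOG, the factor of terminal differentiation, had 66.6, 50.4 and 47.3 TPM in pgEpiSCs-MCs and 2.71 and 1.63 TPM in pgEpiSCs-MPCs, a log2 fold change of 4.14 ± 0.22 (adjusted p = 9.6e-10). MYMK, which encodes the fusion protein myomaker, had 33.6, 28.5 and 23.1 TPM in pgEpiSCs-MCs against 0.341 and 0.299 TPM in pgEpiSCs-MPCs (log2 fold change 4.46 ± 0.13, adjusted p = 2.8e-12). No library of either group overlapped the other for these 3 genes. Such absence of overlap was common: of 14957 tested genes, pgEpiSCs-MCs lay wholly above for 5832 and wholly below for 6088. MEF2C, a partner of the myogenic factors, rose by 3.34 ± 0.12 to between 47.6 and 54.2 TPM in pgEpiSCs-MCs, against 4.02 and 4.19 TPM in pgEpiSCs-MPCs. The laminin receptor subunit ITGA7 rose by 3.48 and the turnover factor KLHL41 by 1.87.

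The upstream progenitor factors moved differently. PAX7 was lower in pgEpiSCs-MCs, at 8.62, 7.92 and 9.20 TPM, against 20.6 and 25.5 TPM in pgEpiSCs-MPCs (log2 fold change -1.32 ± 0.17, adjusted p = 7.0e-06). PAX3 had 103, 113 and 125 TPM in pgEpiSCs-MCs and 118 and 121 TPM in pgEpiSCs-MPCs, so the groups overlapped (adjusted p = 0.73). MYOD1 also overlapped, at 7.91, 9.91 and 11.4 TPM in pgEpiSCs-MCs and 10.4 and 14.8 TPM in pgEpiSCs-MPCs, with a log2 fold change of -0.33 ± 0.16 that did not pass (adjusted p = 0.080). It passed as lower under quantile normalization, with the mitochondrial genes left out, without pgEpiSCs-MPCs replicate 1 and without pgEpiSCs-MCs replicate 3. Within the list the other genes that fell were EYA2 (-1.34), JAM3 (-0.61) and SIX4 (-0.31), the last of which did not pass without pgEpiSCs-MPCs replicate 1 (adjusted p = 0.10). MYF6 and myomixer (MYMX) were not analysed here.

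**Figure D1:**
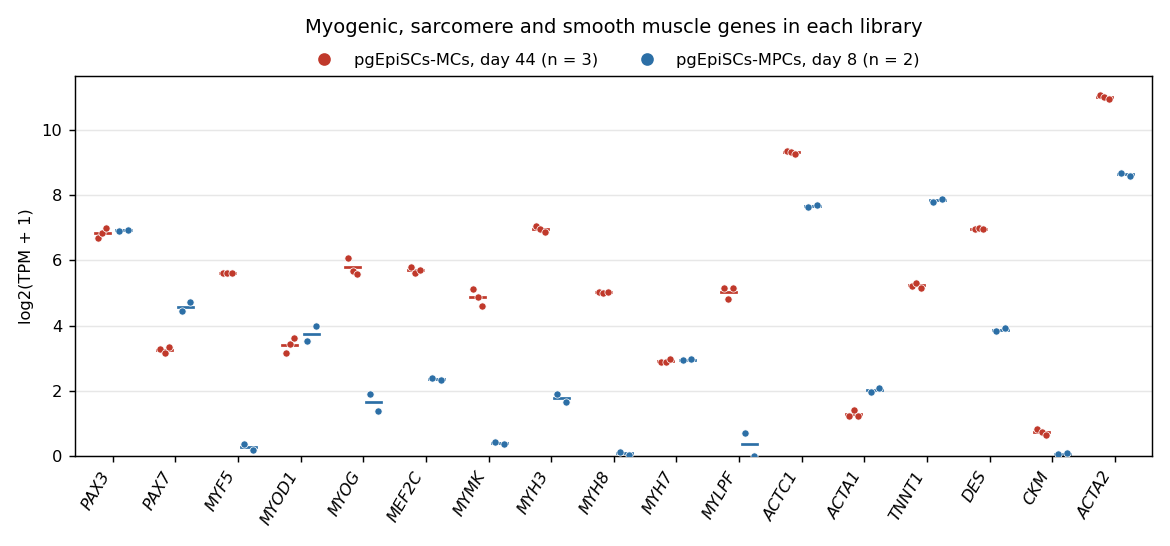
Each point is 1 library and each line a group mean, on log2(TPM + 1), with pgEpiSCs-MCs (red, day 44, 3 libraries) left of pgEpiSCs-MPCs (blue, day 8, 2 libraries) for each gene. MYF5, MYOG, MYMK and MYH3 lie far higher in pgEpiSCs-MCs, PAX3 and MYOD1 overlap, and TNNT1 and ACTA1 lie lower in pgEpiSCs-MCs.

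The stretches just before the starts of MYF5, MYMK, MYOG and DES are shown because these muscle genes were among those called higher, and those of MYMK and DES hold a motif that myogenic factors can read. Each is 250 bases long, on Sscrofa11.1 from the RefSeq assembly, upstream of the annotated 5′ end of the gene, 5′ to 3′ on the strand of the gene, with CAGCTG in capitals. MYF5 and MYOG hold none of the 3 motifs that were searched, and other sequences that myogenic or MEF2 factors can read were not searched.
MYF5 (chr5:100755559-100755808, minus strand): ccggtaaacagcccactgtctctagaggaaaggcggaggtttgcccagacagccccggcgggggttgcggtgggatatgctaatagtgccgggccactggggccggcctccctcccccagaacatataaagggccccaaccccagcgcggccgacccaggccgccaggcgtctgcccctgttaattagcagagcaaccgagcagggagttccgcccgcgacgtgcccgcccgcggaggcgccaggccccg
MYMK (chr1:273111722-273111971, minus strand): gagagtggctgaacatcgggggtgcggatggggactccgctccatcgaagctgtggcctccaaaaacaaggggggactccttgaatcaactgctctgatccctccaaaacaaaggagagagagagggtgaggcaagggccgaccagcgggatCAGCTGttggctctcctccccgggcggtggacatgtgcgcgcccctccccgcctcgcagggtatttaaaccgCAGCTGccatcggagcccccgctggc
MYOG (chr9:113785313-113785562, minus strand): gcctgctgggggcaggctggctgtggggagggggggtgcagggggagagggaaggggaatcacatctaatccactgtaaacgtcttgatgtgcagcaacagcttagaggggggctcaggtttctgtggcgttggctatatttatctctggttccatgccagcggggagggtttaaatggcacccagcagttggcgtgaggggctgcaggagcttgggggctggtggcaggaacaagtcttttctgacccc
DES (chr15:121428289-121428538, plus strand): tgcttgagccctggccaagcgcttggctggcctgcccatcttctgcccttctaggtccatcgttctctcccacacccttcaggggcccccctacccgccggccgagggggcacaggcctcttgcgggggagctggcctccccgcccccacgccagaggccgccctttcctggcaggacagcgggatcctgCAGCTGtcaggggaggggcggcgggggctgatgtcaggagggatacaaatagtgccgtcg
In MYMK the E-box CAGCTG lies at positions -98 to -93 and -26 to -21 from the gene start, and in DES at -60 to -55. Both strands were covered, since each motif searched reads the same on either. Among 53 such stretches of the called-higher members of the myogenic, thick filament, thin filament and Z-disc lists, CAGCTG occurred in 17 (32.1%), against 2662 of 19531 protein-coding genes (13.6%). The MEF2 site, searched in a narrow form only, occurred in 6 of the 53 (11.3%) and in 0.471% of all genes. Looser forms of the MEF2 site were not searched, so both of its counts may be too low. The CArG box occurred in 2 of the 53 (3.77%) and in 1.31% of all genes. List members that were not called higher were not counted. Whether the motifs go with the rise or with muscle genes in general was therefore not tested. These matches are descriptions of letters near annotated starts, and the sites were not tested for binding.

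Sarcomere genes were higher in pgEpiSCs-MCs across the thick filament. Of 16 tested members 15 were higher and 0 lower, with a median log2 fold change of 2.34. MYH3, the embryonic myosin heavy chain, had 131, 123 and 117 TPM in pgEpiSCs-MCs against 2.73 and 2.13 TPM in pgEpiSCs-MPCs (5.19 ± 0.10, adjusted p = 4.8e-14). MYH8, the perinatal chain, had 31.9, 31.1 and 31.3 TPM in pgEpiSCs-MCs against 0.090 and 0.026 TPM in pgEpiSCs-MPCs (4.94 ± 0.11, adjusted p = 1.7e-13). The libraries of the groups did not overlap for either of these developmental myosins, as for most tested genes. MYH7, the slow and cardiac chain, had 6.37, 6.37 and 6.91 TPM in pgEpiSCs-MCs and 6.63 and 6.83 TPM in pgEpiSCs-MPCs, and did not pass (adjusted p = 0.81), although it passed as lower under quantile normalization (-0.40). Myosin heavy chain genes share much of their sequence, so reads may have been divided between them. The regulatory light chain MYLPF of fast fibres had 34.3, 27.3 and 34.3 TPM in pgEpiSCs-MCs against 0.635 and 0 TPM in pgEpiSCs-MPCs, and MYL2, the chain of slow and cardiac fibres, had 34.7, 34.6 and 31.1 TPM in pgEpiSCs-MCs against 0.561 and 0 TPM in pgEpiSCs-MPCs. The light chain MYL4 rose by 3.82, MYL1 by 2.94 and the M-band protein MYOM2 by 2.88. MYH1, MYH2, MYH4, MYL6B and TTN were not analysed here, and MYLK2 was not tested.

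Thin filament genes split by isoform. Of 15 tested 9 were higher and 4 lower (60% and 26.7%, against 34.5% and 36.1% of all genes), with a median of 1.37. The troponin subunits TNNT2 (4.17 ± 0.27), TNNC1 (3.60 ± 0.13) and TNNI1 (3.17 ± 0.12) rose. The fast troponin I, TNNI2, rose as well, with 11.6, 12.3 and 17.8 TPM in pgEpiSCs-MCs, while both pgEpiSCs-MPCs libraries were listed at 0. TNNT1, the slow skeletal troponin T, went the other way, with 36.0, 38.6 and 34.9 TPM in pgEpiSCs-MCs against 221 and 236 TPM in pgEpiSCs-MPCs (-2.61 ± 0.08, adjusted p = 5.1e-12). The actins also differed in direction. ACTC1, the cardiac actin that fetal skeletal muscle also uses, had 657, 642 and 614 TPM in pgEpiSCs-MCs against 200 and 205 TPM in pgEpiSCs-MPCs (1.65 ± 0.20, adjusted p = 4.3e-06). ACTA1, the skeletal actin, had 1.34, 1.65 and 1.31 TPM in pgEpiSCs-MCs against 2.86 and 3.25 TPM in pgEpiSCs-MPCs (-0.74 ± 0.16, adjusted p = 0.0010), a fall that did not pass with a pseudocount of 0.1 (adjusted p = 0.060). Actin genes are near identical in coding sequence, so their single values are uncertain. Tropomyosin TPM2 rose by 1.14, while TPM3 (-1.09) and TPM1 (-0.43) were lower. In differentiated muscle stem cells (MPC-Dif) the mean levels were 277 TPM for MYH3, 1337 TPM for ACTC1, 126 TPM for ACTA1 and 212 TPM for MYOG.

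Most Z-disc genes rose. Of 19 tested 16 were higher and 1 lower, with a median of 0.95. DES, the muscle intermediate filament desmin, had 124, 126 and 123 TPM in pgEpiSCs-MCs against 13.2 and 14.1 TPM in pgEpiSCs-MPCs (3.10 ± 0.09, adjusted p = 3.1e-12). The chaperone CRYAB rose by 4.00, the mechanical sensor CSRP3 by 3.59, SYNPO2 by 3.17 and the alpha-actinin ACTN2 by 2.51. TCAP, the titin cap, was the lower member, at 1.80, 1.17 and 1.58 TPM in pgEpiSCs-MCs against 3.69 and 5.65 TPM in pgEpiSCs-MPCs.

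Of 21 tested excitation-contraction coupling genes 9 were higher and 3 lower (42.9% and 14.3%, against 34.5% and 36.1% of all genes), with a median of 0.25. Calsequestrin CASQ1, the calcium buffer of the sarcoplasmic reticulum, had 17.01, 18.38 and 18.93 TPM in pgEpiSCs-MCs against 2.21 and 2.16 TPM in pgEpiSCs-MPCs, a rise of 2.58. JPH1, which ties that store to the surface membrane, fell by 2.07. The calcium channel CACNA1S rose but stayed low, at 0.949, 1.09 and 0.742 TPM in pgEpiSCs-MCs against 0.253 and 0.490 TPM in pgEpiSCs-MPCs, and did not pass without pgEpiSCs-MPCs replicate 1 (adjusted p = 0.12) or under quantile normalization. At the neuromuscular junction 4 of 7 tested genes were higher and 3 lower (57.1% and 42.9%, against 34.5% and 36.1% of all genes). The acetylcholine receptor subunit CHRNB1 had 278, 278 and 281 TPM in pgEpiSCs-MCs against 33.5 and 37.4 TPM in pgEpiSCs-MPCs (2.94 ± 0.10). MUSK, the kinase that clusters those receptors, was lower, at 0.755, 0.607 and 0.411 TPM in pgEpiSCs-MCs against 11.8 and 12.1 TPM in pgEpiSCs-MPCs (-3.03 ± 0.14). Of 15 tested dystrophin complex and laminin genes 11 were higher and 2 lower, among them LAMB1 (4.30), LAMA4 (4.00) and the sarcoglycan SGCD (1.91).

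Enzymes of muscle energy supply were mixed, with 9 of 17 tested higher and 4 lower (median 0.45). That is 52.9% and 23.5%, against 34.5% and 36.1% of all genes. PGAM2, the muscle phosphoglycerate mutase, had 160, 184 and 166 TPM in pgEpiSCs-MCs against 11.8 and 11.0 TPM in pgEpiSCs-MPCs (3.79 ± 0.12), and LDHA, lactate dehydrogenase A, had 2316, 2216 and 2207 TPM in pgEpiSCs-MCs against 145 and 236 TPM in pgEpiSCs-MPCs (3.59 ± 0.14). CKM had 0.757, 0.663 and 0.549 TPM in pgEpiSCs-MCs against 0.033 and 0.057 TPM in pgEpiSCs-MPCs, a log2 fold change of 0.66 ± 0.12 that passed (adjusted p = 1.7e-04) but not under quantile normalization. The glycogen phosphorylase PYGM (-0.77) and LDHB (-0.69) were lower. The higher count in this list was 5 under quantile normalization. The lower count was 2 under alternatives that included median-of-ratios scaling and leaving out pgEpiSCs-MCs replicate 3.

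**Figure D2:**
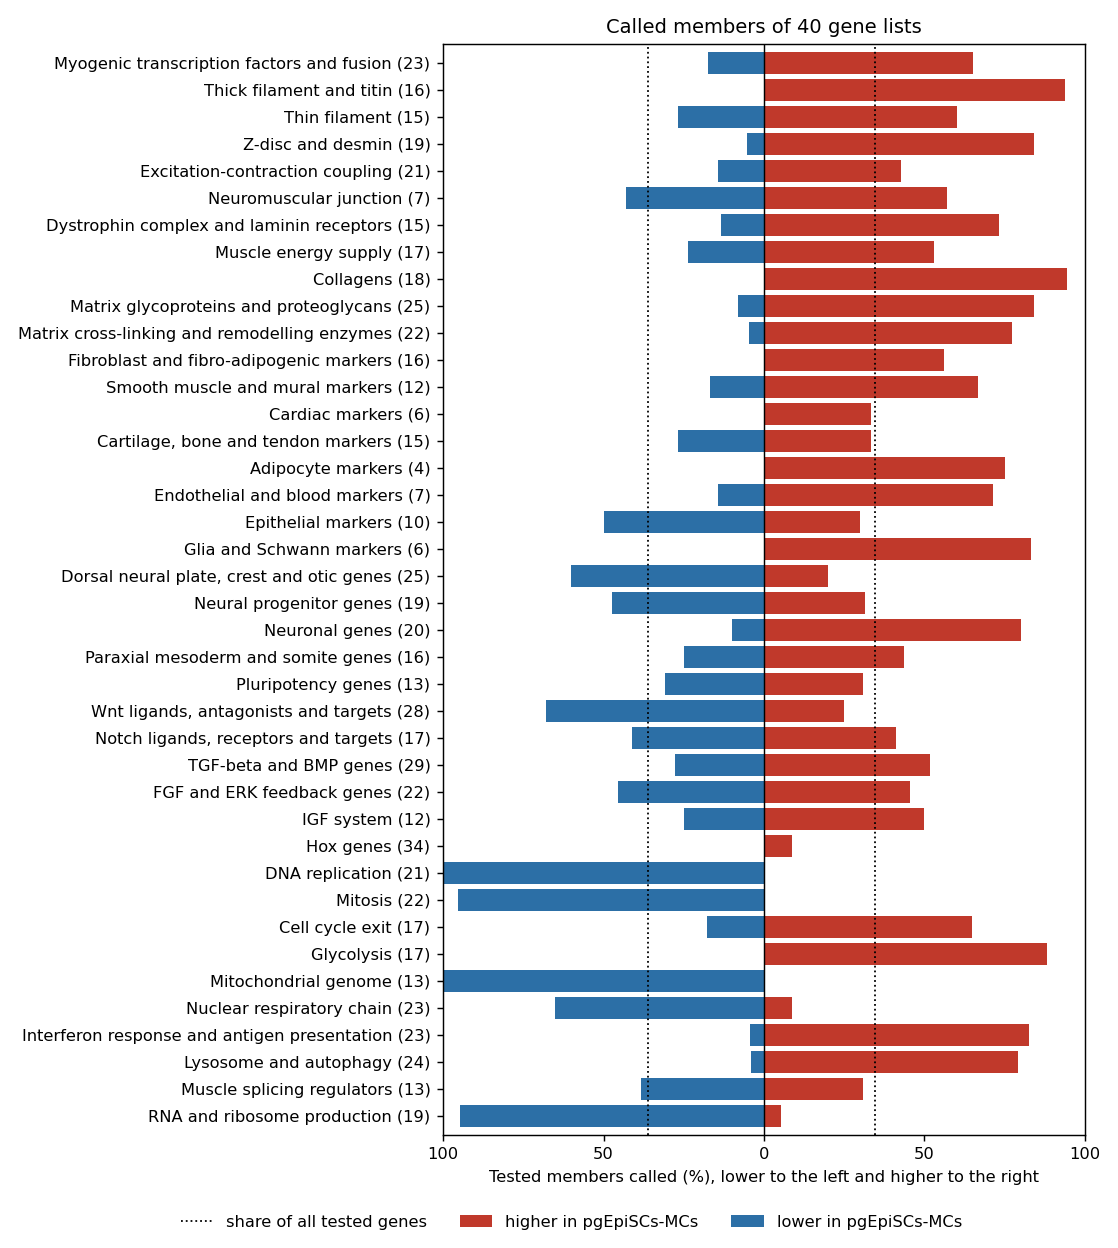
Bars give the share of tested members of each of 40 gene lists called higher (red, right) or lower (blue, left) in pgEpiSCs-MCs relative to pgEpiSCs-MPCs, with the number tested in brackets and dotted lines at the shares over all tested genes (34.5% and 36.1%). Thick filament, collagen and glycolysis lists lie almost wholly to the right, and DNA replication, mitosis and mitochondrial genome lists almost wholly to the left.

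Genes of the extracellular matrix were far higher in pgEpiSCs-MCs. The 15 largest rises among called genes without overlap had log2 fold changes of 6.62 to 8.66, and COL1A1, COL6A1, COL1A2, MFAP4, TNN and BGN among them encode matrix proteins. Of 18 tested collagens 17 were higher and 0 lower, with a median of 4.18, and 16 of them rose by more than 2. COL1A1 (chr12:26379087-26397180 on Sscrofa11.1), a chain of the fibrous type I collagen, had 6201, 6104 and 5928 TPM in pgEpiSCs-MCs against 14.15 and 13.99 TPM in pgEpiSCs-MPCs (8.66 ± 0.12, adjusted p = 3.4e-15). Its partner COL1A2 had 8716, 8136 and 7787 TPM in pgEpiSCs-MCs against 20.4 and 19.7 TPM in pgEpiSCs-MPCs (8.61 ± 0.13). The ratio of mean TPM was 432 for COL1A1. COL6A1, a chain of the microfibrillar type VI collagen, rose by 8.62, COL6A2 by 6.54 and COL3A1, of the type III fibres, by 3.39 ± 0.40. COL18A1 was the member that did not pass, at 41.6, 56.2 and 49.5 TPM in pgEpiSCs-MCs and 60.8 and 71.2 TPM in pgEpiSCs-MPCs, and it passed as lower when only the compared groups were fitted (adjusted p = 0.013). Summed over the list, collagens had 26726 to 27636 TPM in pgEpiSCs-MCs libraries and 690 to 715 TPM in pgEpiSCs-MPCs libraries.

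Matrix glycoproteins and the enzymes that finish collagen were mostly higher too. Of 25 tested glycoproteins and proteoglycans 21 were higher and 2 lower (median 2.97). The small proteoglycan BGN had 1422, 1565 and 1532 TPM in pgEpiSCs-MCs against 10.9 and 16.5 TPM in pgEpiSCs-MPCs (6.70 ± 0.21), and tenascin C, TNC, had 1216, 1144 and 1127 TPM in pgEpiSCs-MCs against 32.5 and 32.5 TPM in pgEpiSCs-MPCs (5.12 ± 0.12). Fibronectin FN1 rose by 3.94, elastin ELN by 4.83 and periostin POSTN by 4.76. The microfibril genes MFAP2 (-1.60) and FBN2 (-1.12) were the lower members. Among cross-linking and remodelling enzymes 17 of 22 were higher and 1 lower (median 1.69). The collagen prolyl hydroxylase P4HA1 (4.30), the lysyl hydroxylase PLOD1 (4.22), the protease inhibitor TIMP3 (4.45) and the lysyl oxidase homologue LOXL2 (3.17) rose, and LOXL1 (-0.96) fell.

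Markers of other cell types changed to different degrees. Of 16 tested fibroblast and fibro-adipogenic markers 9 were higher and 0 lower (56.2% and 0%, against 34.5% and 36.1% of all genes). Their median was 0.33, and their summed level was 1417 to 1528 TPM in pgEpiSCs-MCs and 81.7 to 86.0 TPM in pgEpiSCs-MPCs. Without S100A4 the sum was 632 to 649 TPM in pgEpiSCs-MCs and 78.1 to 84.3 TPM in pgEpiSCs-MPCs. S100A4, a calcium-binding protein of fibroblasts and other motile cells, had 786, 867 and 878 TPM in pgEpiSCs-MCs against 3.62 and 1.77 TPM in pgEpiSCs-MPCs (7.88 ± 0.49), and the limb and connective tissue factor PRRX1 had 175, 162 and 165 TPM in pgEpiSCs-MCs against 2.78 and 3.19 TPM in pgEpiSCs-MPCs (5.40 ± 0.11). PDGFRA, which marks fibro-adipogenic progenitors, rose by 1.12 but reached at most 4.03 TPM in pgEpiSCs-MCs, the dermatopontin gene DPT was listed at 0 in all 5 libraries, and FAP did not pass. Of 12 tested smooth muscle and mural markers 8 were higher and 2 lower (66.7% and 16.7%). Smooth muscle actin ACTA2 had 2166, 2058 and 1991 TPM in pgEpiSCs-MCs against 410 and 383 TPM in pgEpiSCs-MPCs (2.38 ± 0.17), and the mural proteoglycan CSPG4 had 22.6, 27.3 and 21.4 TPM in pgEpiSCs-MCs against 0.157 and 0.138 TPM in pgEpiSCs-MPCs, while RGS5 did not pass. The part of these cell types in the muscle and matrix results was not tested.

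Of 15 tested bone, cartilage and tendon markers 5 were higher and 4 lower (median 0.03), shares of 33.3% and 26.7% that do not exceed those of all genes (34.5% and 36.1%). The bone sialoprotein IBSP had 52.1, 44.3 and 34.1 TPM in pgEpiSCs-MCs but was listed at 0 in each pgEpiSCs-MPCs library. RUNX2, the bone master factor, had 24.1, 24.6 and 23.7 TPM in pgEpiSCs-MCs against 0.015 and 0.054 TPM in pgEpiSCs-MPCs. COL2A1, the cartilage collagen that the early neural tube and notochord also make, fell to 9.14, 9.38 and 9.51 TPM in pgEpiSCs-MCs, against 327 and 354 TPM in pgEpiSCs-MPCs (-5.04 ± 0.12). ACAN, the cartilage proteoglycan, had at most 0.084 TPM in the 5 libraries. Cardiac markers were higher for 2 of 6 tested, ANKRD1 (2.62) and MYBPC3 (0.75), a share of 33.3% near that of all genes. MYBPC3 did not pass under quantile normalization (adjusted p = 0.056), and the count was 1 there and with a filter of TPM above 2. HAND2 was listed at 0 throughout. Adipocyte markers were higher for 3 of 4 tested (75%). LPL led them with 4.98, 4.56 and 4.62 TPM in pgEpiSCs-MCs against 0.458 and 0.805 TPM in pgEpiSCs-MPCs. Among 7 tested endothelial and blood markers 5 were higher and 1 lower (71.4% and 14.3%). The VEGF receptor FLT1 had 21.1, 19.1 and 19.1 TPM in pgEpiSCs-MCs against 0.062 and 0.218 TPM in pgEpiSCs-MPCs, while the endothelial cadherin CDH5 did not pass and had at most 0.304 TPM. Epithelial markers were higher for 3 of 10 tested (30%) and lower for 5 (50%), with CDH1 rising by 3.49 and DSP falling by 3.16.

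**Figure D3:**
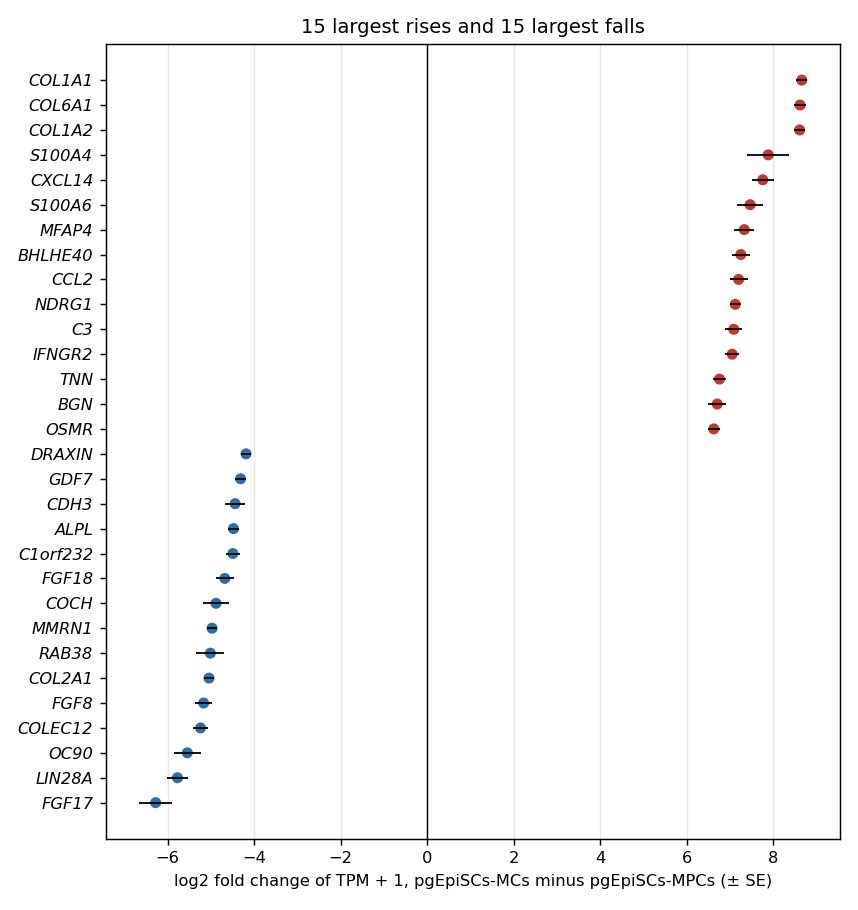
Points give the log2 fold change of TPM + 1 (pgEpiSCs-MCs minus pgEpiSCs-MPCs) and bars its standard error for the 15 largest rises (red) and 15 largest falls (blue) among called genes whose libraries did not overlap. COL1A1 stands at 8.66 and FGF17 at -6.28.

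The largest falls included signals and markers of early neural and ear tissue. FGF17, a midbrain and hindbrain signal, had 3.44, 3.37 and 0.465 TPM in pgEpiSCs-MCs against 227 and 245 TPM in pgEpiSCs-MPCs (-6.28 ± 0.38, adjusted p = 3.1e-09). The related FGF8 had 0, 0.388 and 0.214 TPM in pgEpiSCs-MCs against 43.5 and 40.2 TPM in pgEpiSCs-MPCs (-5.17 ± 0.20), and FGF18 fell by 4.68. OC90 (chr4:9028483-9054503) had 53.1, 57.6 and 55.6 TPM in pgEpiSCs-MCs against 2540 and 2734 TPM in pgEpiSCs-MPCs (-5.55 ± 0.31, adjusted p = 1.4e-09). Its level was still at least 53.1 TPM in every late library, far below both progenitor libraries. LIN28A, an RNA-binding protein of early embryonic cells that blocks let-7 miRNAs, had 0, 0.887 and 1.23 TPM in pgEpiSCs-MCs against 72.8 and 104 TPM in pgEpiSCs-MPCs (-5.77 ± 0.24). Among the other falls were COCH, a matrix protein of the inner ear (-4.88), GDF7, a signal of the dorsal neural tube (-4.31), and DRAXIN, an axon guidance protein (-4.19).

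Dorsal neural, crest and otic genes were lower for 15 of 25 tested and higher for 5 (median -0.67). GBX2 of the hindbrain fell by 3.99, OLIG3 by 3.59, LMX1B by 3.27 and WNT1 by 2.80. WNT8B, a signal of the dorsal forebrain and midbrain, had 70.0, 52.6 and 51.6 TPM in pgEpiSCs-MCs against 291 and 334 TPM in pgEpiSCs-MPCs (-2.42 ± 0.17, adjusted p = 1.3e-08). Other members stayed abundant on day 44. ZIC1 had 738, 804 and 812 TPM in pgEpiSCs-MCs against 1048 and 1094 TPM in pgEpiSCs-MPCs (-0.45 ± 0.11, adjusted p = 0.0024). The call was lost with a pseudocount of 0.1 (adjusted p = 0.41), although the log2 fold change there was still -0.45. CRABP1 had 884, 859 and 929 TPM in pgEpiSCs-MCs against 1415 and 1417 TPM in pgEpiSCs-MPCs, without overlap, but did not pass against the spread pooled over all groups (-0.67 ± 0.34, adjusted p = 0.092). It passed when only the compared groups were fitted (adjusted p = 7.62e-06) and under quantile normalization. PAX6 (57.2, 55.3 and 55.4 TPM in pgEpiSCs-MCs, 45.9 and 49.7 TPM in pgEpiSCs-MPCs) and PAX2 did not pass. Both passed as higher under median-of-ratios scaling (adjusted p = 0.038 for PAX6 and 0.039 for PAX2), as did PAX6 with only the compared groups fitted (0.020). The crest factors SNAI2 (3.54), TFAP2A (2.01) and TFAP2B (1.08) rose.

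Neuronal genes were higher as a list, whereas neural progenitor genes were nearer to the shares of all genes. Of 20 tested neuronal genes 16 were higher and 2 lower, with a median of 1.29. The lower count was 1 under several alternatives. These included leaving out pgEpiSCs-MCs replicate 3, median-of-ratios scaling, fitting only the compared groups and the replicate block. With a filter of TPM above 2 it was 0. TUBB3, the neuronal tubulin, had 545, 530 and 600 TPM in pgEpiSCs-MCs against 123 and 130 TPM in pgEpiSCs-MPCs (2.13 ± 0.11), and the growth cone regulator STMN2 had 330, 290 and 342 TPM in pgEpiSCs-MCs against 78.2 and 71.2 TPM in pgEpiSCs-MPCs (2.09 ± 0.14). The synaptic genes SYT1 (3.33) and SNAP25 (2.26) rose with them. NEFL and INA did not pass. Neural progenitor genes were higher for 6 of 19 tested and lower for 9 (31.6% and 47.4%, against 34.5% and 36.1% of all genes). Their median was -0.24, and the higher count was 3 with a pseudocount of 0.1. The Notch target HES5 fell by 3.00, PROM1 by 2.58 and MSI1 by 1.68. SOX2 had 96.9, 130 and 128 TPM in pgEpiSCs-MCs against 85.4 and 93.4 TPM in pgEpiSCs-MPCs (0.39 ± 0.14, adjusted p = 0.022), a call lost when any of 3 libraries (pgEpiSCs-MPCs replicate 1, pgEpiSCs-MCs replicate 2 or 3) was left out, with a pseudocount of 0.1 and with the mitochondrial genes left out. Glial markers were higher for 5 of 6 tested (83.3%). GFAP, the astrocyte filament, had 64.1, 65.1 and 67.0 TPM in pgEpiSCs-MCs against 0.974 and 0.656 TPM in pgEpiSCs-MPCs (5.20 ± 0.12). SOX10, a factor of crest and Schwann cells, was called higher but had 0.683, 0.724 and 0.350 TPM in pgEpiSCs-MCs and was listed at 0 in pgEpiSCs-MPCs, and the call was lost under quantile normalization (adjusted p = 0.19). Summed neuronal genes had 1435 to 1598 TPM in pgEpiSCs-MCs and 479 to 492 TPM in pgEpiSCs-MPCs, against 20.6 to 25.0 TPM in MPC-Dif. Their part in the muscle results was not tested.

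**Figure D4:**
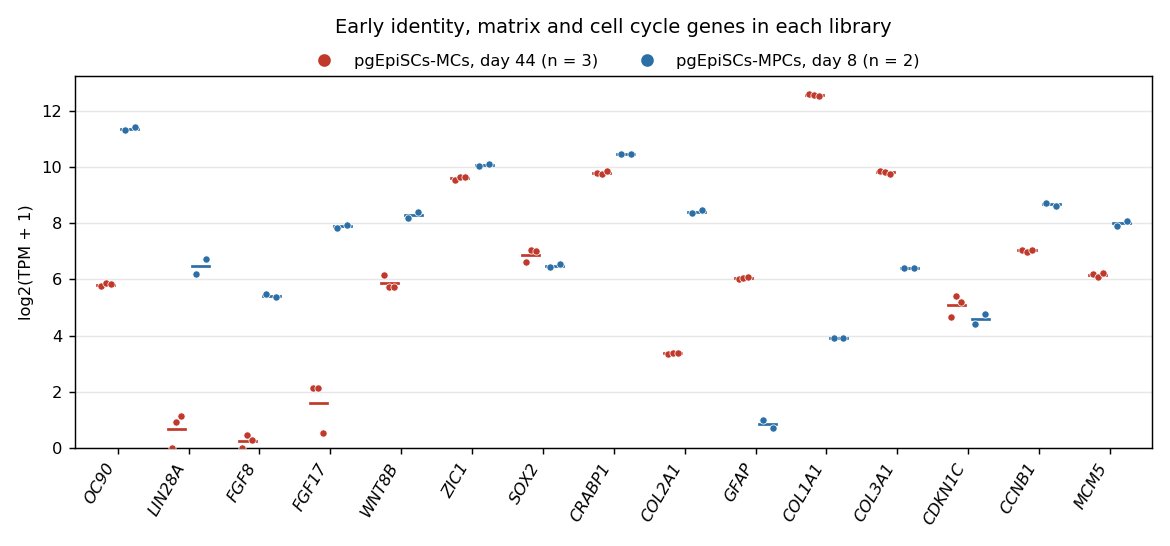
Each point is 1 library and each line a group mean, on log2(TPM + 1), with pgEpiSCs-MCs (red, day 44, 3 libraries) left of pgEpiSCs-MPCs (blue, day 8, 2 libraries). OC90, LIN28A and the FGF genes lie far lower in pgEpiSCs-MCs, ZIC1 and CRABP1 stay high in both groups, and GFAP and COL1A1 lie far higher in pgEpiSCs-MCs.

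Of 16 tested mesodermal genes of the somite 7 were higher and 4 lower (43.8% and 25%, against 34.5% and 36.1% of all genes), with a median of 0.21. MEOX1, a somite factor, had 18.1, 21.0 and 21.7 TPM in pgEpiSCs-MCs against 1.22 and 0.297 TPM in pgEpiSCs-MPCs (3.64 ± 0.18), and TBX6, of the presomitic mesoderm, had 34.7, 35.0 and 38.0 TPM in pgEpiSCs-MCs against 7.07 and 10.2 TPM in pgEpiSCs-MPCs (1.95 ± 0.20). TCF15 did not pass. The higher count was 4 under quantile normalization and with a filter of TPM above 2. Hox genes, which set position along the body axis, were near silent in both groups: 31 of 34 tested did not pass, and the list summed to 5.26 to 5.47 TPM in pgEpiSCs-MCs and 0.649 to 2.43 TPM in pgEpiSCs-MPCs, against 397 to 403 TPM in MPC-Dif. HOXA2 (1.53), HOXB3 (1.15) and HOXB2 (0.75) were the higher members, and HOXB2 did not pass without pgEpiSCs-MPCs replicate 1 (adjusted p = 0.064) or under quantile normalization. Of 13 tested pluripotency genes 4 were higher and 4 lower, 30.8% each and below the shares of all genes. LIN28B fell by 3.50 and DNMT3B by 1.79. The higher members included NANOG, at 0, 0.387 and 0.640 TPM in pgEpiSCs-MCs and listed at 0 in each pgEpiSCs-MPCs library, so that the groups overlapped, and LEFTY2, at most 2.25 TPM. The count of higher members was 1 without pgEpiSCs-MCs replicate 2 or without pgEpiSCs-MCs replicate 3, and 2 under quantile normalization. It also moved when either pgEpiSCs-MPCs library was left out.

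Signalling genes differed by pathway. Wnt genes were lower for 19 of 28 tested and higher for 7 (median -0.99). The ligand WNT3A had 17.1, 11.7 and 15.3 TPM in pgEpiSCs-MCs against 238 and 246 TPM in pgEpiSCs-MPCs (-3.97 ± 0.22), and the pathway targets NKD1 (-2.90), SP5 (-2.61), LEF1 (-1.85) and AXIN2 (-1.16) were lower too. The R-spondin RSPO3, which amplifies the signal, had 101, 91.4 and 91.6 TPM in pgEpiSCs-MCs against 411 and 415 TPM in pgEpiSCs-MPCs. The secreted antagonist SFRP4 (3.52), the non-canonical ligand WNT5B (2.33) and DKK3 (2.06) rose. TGF-beta and BMP genes were higher for 15 of 29 tested and lower for 8 (median 0.65). That is 51.7% and 27.6%, against 34.5% and 36.1% of all genes. All 3 TGF-beta ligands rose: TGFB1 had 66.0, 76.3 and 79.1 TPM in pgEpiSCs-MCs against 1.05 and 0.637 TPM in pgEpiSCs-MPCs (5.35 ± 0.13), TGFB2 rose by 5.89 and TGFB3 by 5.16. The TGF-beta targets CCN2 (3.25) and SMAD7 (3.19) rose as well. The ligand BMP7 (-3.73), the BMP target ID3 (-1.29) and the receptor TGFBR1 (-1.05) were lower.

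FGF genes were higher for 10 and lower for 10 of 22 tested (45.5% each), against 34.5% higher and 36.1% lower of all genes. Beside the ligands above, the feedback inhibitors SPRY1 (-1.51) and SPRY2 (-1.17) fell, while SPRY4 (2.29) and the receptor FGFR4 (2.18), which muscle progenitors use, rose. IGF genes were higher for 6 of 12 tested and lower for 3 (50% and 25%). The higher members other than the receptor IGF2R were the binding proteins. IGFBP5, which muscle cells secrete on differentiation, had 790, 817 and 813 TPM in pgEpiSCs-MCs against 9.50 and 9.48 TPM in pgEpiSCs-MPCs (6.27 ± 0.12), and IGFBP2 had 3477, 4310 and 4247 TPM in pgEpiSCs-MCs against 459 and 484 TPM in pgEpiSCs-MPCs (3.08 ± 0.09). IGF1 itself had at most 0.344 TPM in the 5 libraries, and IGF2 was not analysed here. Notch genes were higher for 7 and lower for 7 of 17 tested (41.2% each, near the shares of all genes). The target HES1 had 155, 174 and 184 TPM in pgEpiSCs-MCs against 40.8 and 33.2 TPM in pgEpiSCs-MPCs (2.18 ± 0.13), and the receptor NOTCH2 fell by 1.59.

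Cell division genes were lower in pgEpiSCs-MCs almost without exception. All 21 tested DNA replication genes fell (median -1.90), against 36.1% of all tested genes. PCNA, the sliding clamp of the polymerase, had 32.2, 36.2 and 33.7 TPM in pgEpiSCs-MCs against 255 and 229 TPM in pgEpiSCs-MPCs (-2.79 ± 0.07, adjusted p = 7.7e-13). The helicase subunits MCM2 to MCM7 fell by between 1.20 for MCM4 and 2.30 for MCM3. Of 22 tested mitosis genes 21 were lower and 0 higher (median -1.36), and the exception was PRC1, at most 0.317 TPM in any library. Cyclin B1, CCNB1, had 132, 126 and 132 TPM in pgEpiSCs-MCs against 424 and 394 TPM in pgEpiSCs-MPCs (-1.64 ± 0.08), and the kinetochore gene NDC80 fell by 2.22. Transcripts of division were still present on day 44: the topoisomerase TOP2A had 346, 313 and 313 TPM in pgEpiSCs-MCs against 848 and 745 TPM in pgEpiSCs-MPCs. Summed mitosis genes had 1744 to 1850 TPM in pgEpiSCs-MCs and 4484 to 4754 TPM in pgEpiSCs-MPCs, against 229 to 303 TPM in MPC-Dif.

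Genes of cell cycle exit were higher for 11 of 17 tested and lower for 3 (median 0.71). The kinase inhibitor p21, CDKN1A, had 530, 527 and 538 TPM in pgEpiSCs-MCs against 115 and 118 TPM in pgEpiSCs-MPCs (2.18 ± 0.09), and p15, CDKN2B, had 21.0, 16.1 and 18.7 TPM in pgEpiSCs-MCs against 0.254 and 0.446 TPM in pgEpiSCs-MPCs (3.86 ± 0.13). The stress genes GADD45B (4.39) and GADD45A (2.36) rose too. CDKN1C, the inhibitor p57, had 24.6, 41.4 and 35.5 TPM in pgEpiSCs-MCs and 20.1 and 26.4 TPM in pgEpiSCs-MPCs, overlapped and did not pass (adjusted p = 0.21), although it passed when only the compared groups were fitted (adjusted p = 0.047). Cyclin D1, CCND1, was lower by 1.07 on the log2 scale, as was the retinoblastoma relative RBL1 (-1.73).

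Of 17 tested glycolysis genes 15 were higher and 0 lower (median 2.73). ENO1, an enolase, had 9748, 9863 and 9385 TPM in pgEpiSCs-MCs against 937 and 1303 TPM in pgEpiSCs-MPCs (3.13 ± 0.10), and the hexokinase HK2 had 1358, 1264 and 1296 TPM in pgEpiSCs-MCs against 101 and 168 TPM in pgEpiSCs-MPCs (3.32 ± 0.16). The lactate exporter SLC16A3 (4.90), the neuronal enolase ENO2 (4.86) and PFKP (4.48) led the list. GAPDH had 7.48, 9.13 and 10.2 TPM in pgEpiSCs-MCs against 0.896 and 0.492 TPM in pgEpiSCs-MPCs, and ALDOA had at most 1.09 TPM. Both enzymes are used by every cell, so single low values in this table may not stand for low expression. All 13 protein-coding genes of the mitochondrial genome were lower (median -1.60). COX2 had 6341, 5704 and 5695 TPM in pgEpiSCs-MCs against 24333 and 21922 TPM in pgEpiSCs-MPCs (-1.97 ± 0.07), and ND1 fell by 2.13. Together they made up 6.07 to 6.61% of all TPM in pgEpiSCs-MCs and 15.8 to 17.1% in pgEpiSCs-MPCs. Under quantile normalization 12 of the 13 were lower and COX1 was higher (log2 fold change 0.27). Nuclear genes of the respiratory chain were lower for 15 of 23 tested and higher for 2, COX4I1 and SDHA, with a smaller median of -0.39. In this list NDUFV2 fell by 1.01 and UQCRFS1 by 0.93.

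**Figure D5:**
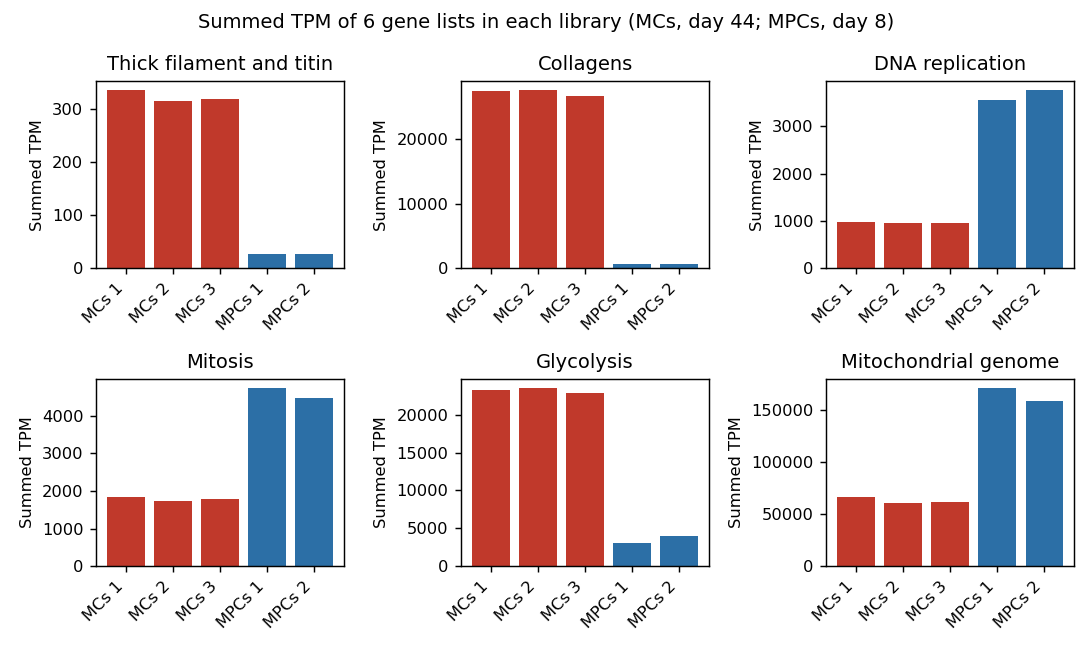
Bars give the summed TPM of 6 gene lists in each library, with the 3 pgEpiSCs-MCs libraries (red, day 44) left of the 2 pgEpiSCs-MPCs libraries (blue, day 8). Thick filament, collagen and glycolysis sums are higher in every pgEpiSCs-MCs library, and DNA replication, mitosis and mitochondrial genome sums are lower in every one.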

How the data were processed

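Poly-A RNA of 14 libraries was sequenced. The processing notes name HISAT2 and featureCounts, and the authors deposited 1 table of TPM; the annotation release is not given in the sources used here. All 14 columns were matched to libraries by name. Of 2209 genes named by Ensembl identifier, 608 were given a symbol, and list genes were also sought under RefSeq synonyms. TPM keeps no read counts, so the study's count test was not used. Log2(TPM + 1) values were fitted with limma 3.58.1 in R 4.3.3 (intensity trend, 1 mean per group, 5 groups), two-sided, with Benjamini-Hochberg adjustment over 14957 genes. Python 3.11.15 with pandas 2.3.3 was used otherwise, and the fit was tested on simulated data.

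Members and the 40 gene lists (782 genes, of which 95 were not analysed here) were chosen with earlier results of these data known. Named genes were the 15 largest rises and falls without overlap, up to 5 called members per list and a fixed set; further list members were named after their values were seen, and some members that the rule names are not reported here. Alternatives changed the pseudocount (0.1 or 0.5), filter, scaling, libraries fitted, trend or replicate block. Promoter stretches came from RefSeq Sscrofa11.1.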

Additional observations from a re-analysis of the deposited data

How the results depend on the processing

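Of 289 genes named in the text or by the naming rule 268 could be fitted under all 16 alternatives, and 252 of these kept their call in each. The other 21 were left out of at least 1 alternative by its filter or with the mitochondrial genes, and 16 of them kept their call wherever they were fitted. COX1 alone reversed, with a log2 fold change of 0.27 under quantile normalization; the cause was not tested. Requiring a log2 fold change beyond 2 left 962 higher and 257 lower genes, and 144 higher and 40 lower list members of 334 and 208, by construction. With a pseudocount of 0.1 these were 1677 and 528 genes. Leaving out 1 library in turn gave 4524 to 5002 higher and 4805 to 5265 lower genes, and 311 to 330 higher and 194 to 207 lower list members; where 1 pgEpiSCs-MPCs library was left, it was assumed to vary like the other groups. Median-of-ratios scaling gave 5502 higher and 4934 lower, quantile normalization 4494 and 6053, and leaving out mitochondrial genes 4432 and 6242. Over all genes the median log2 fold change moved to -0.11 under quantile normalization and to -0.13 without mitochondrial genes. Whether replicate numbers pair the libraries could not be settled. Same-numbered deviations correlated at 0.075 and 0.071 over 2 pairs, but the 2 pgEpiSCs-MPCs libraries deviate from their mean by equal and opposite amounts. The replicate block gave 5091 higher and 5282 lower genes. TPM keeps no read depth, so the precision of low values is unknown.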

Other observations

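Further gene lists were counted in the same way, where 34.5% of all tested genes were higher in pgEpiSCs-MCs and 36.1% lower. Of 23 tested interferon and antigen presentation genes 19 were higher and 1 lower (median log2 fold change 1.69), with B2M, the light chain of class I molecules, at 14.5, 14.3 and 14.4 TPM in pgEpiSCs-MCs against 0.881 and 0.751 TPM in pgEpiSCs-MPCs (3.08). The proteasome subunit PSMB8 rose by 2.77 and IFI6 by 3.06. Of 24 tested lysosome and autophagy genes 19 were higher and 1, CTSL, was lower (median 1.05). TFEB, which drives lysosome genes, rose by 3.16, and the muscle ubiquitin ligase FBXO32 by 2.51. Genes of ribosome production were lower for 18 of 19 tested (median -1.44), including NOP56 (-2.08) and NCL (-1.72), while MYC rose by 1.17. Among 13 tested splicing regulators of muscle 4 were higher and 5 lower (30.8% and 38.5%), near the shares of all genes. RBFOX1 had 17.7, 18.0 and 18.6 TPM in pgEpiSCs-MCs against 0.261 and 0.153 TPM in pgEpiSCs-MPCs (3.98), and PTBP1 (-1.25) and PTBP2 (-1.38), which repress muscle and neural exons, fell.

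The following genes were chosen after their values were seen. VEGFA, the endothelial growth factor, had 1699, 1764 and 1735 TPM in pgEpiSCs-MCs against 44.4 and 58.2 TPM in pgEpiSCs-MPCs (5.06). ADM (5.25), BNIP3 (3.97) and EGLN3 (4.09), which cells raise at low oxygen, were higher as well, and CA9, another such gene, had 9.97, 10.7 and 10.3 TPM in pgEpiSCs-MCs against 5.54 and 5.89 TPM in pgEpiSCs-MPCs (0.76). Oxygen in the cultures was not measured in these files. PRPH, a filament of peripheral neurons, had 113, 105 and 94.9 TPM in pgEpiSCs-MCs against 0.362 and 0.875 TPM in pgEpiSCs-MPCs (6.04).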
